A study of Mus musculus with 2 samples.

Results

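The cytochrome P450 enzymes of families 1 to 4 were followed as a group of 54 genes in liver cells from healthy and from CCl4-injured mice. A gene was a member when its symbol was Cyp followed by a family digit from 1 to 4, a subfamily letter and a gene number, and when its Ensembl identifier stood on the gene lists of both libraries. It also needed a summed count of at least 10 UMIs over both libraries, where a UMI (unique molecular identifier) marks a captured RNA molecule. Of the 30406 genes on both lists, 75 had such a symbol, and 21 of these were left out for low counts, 12 of them with no UMI at all. Cyp2c39 and Cyp4x1 stood just inside the limit, with 14 UMIs each, and Cyp4a31 stood just outside it, with 8 UMIs. All 54 members had a UMI in the healthy library and 50 had a UMI in the CCl4 library.

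Droplet single-cell RNA sequencing (10x Genomics) was performed on 1 library of liver cells from uninjured mice and 1 library from mice given repeated injections of carbon tetrachloride (CCl4), a solvent that hepatocytes turn into toxic radicals. The study describes these injections as a model of chronic liver injury. Both groups carried Col1a2CreER:Rosa26tdTomato, in which a tamoxifen-activated Cre under the Col1a2 promoter switches on a red fluorescent protein, on a C57BL/6 background. The labels give neither age nor sex nor the number of mice in a library. Mice of both sexes were used for CCl4 injury in the study, whose methods give no sex for either library. A difference of sex or age between the libraries, and its part in the values below, was not tested. Per the study's methods, cells carrying CD45, which are mostly immune cells, were depleted in both groups, so the shares of cell classes are those of the sorted suspension. Filtering left 5602 healthy cells (median depth 6783.5 UMIs) and 7314 CCl4 cells (median depth 11876 UMIs), and 10 cell barcodes occurred in both libraries. Globin RNA was found in 20.3% of the CCl4 cells and in 0.0536% of the healthy cells, and its share ranged from 6.25% to 25.4% over 17 clusters of CCl4 cells. Its part in the values below was not tested. Since each condition had 1 library, there is no test across animals, and every interval in square brackets is a 95% interval that covers counting error only.

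As background, P450 enzymes are heme proteins of the endoplasmic reticulum that insert an oxygen atom into fat-soluble substrates, with electrons passed on by P450 reductase (Por) and cytochrome b5 (Cyb5a). Families 1 to 3 are known for the oxidation of drugs and other foreign compounds, and many enzymes of family 4 hydroxylate fatty acids and eicosanoids. In liver most of them belong to hepatocytes and many are concentrated around the central vein of the lobule, where Cyp2e1 also starts the toxicity of CCl4. Their genes respond to nuclear receptors and other sensors: Ahr for family 1, Nr1i3 and Nr1i2 for subfamilies 2b, 2c and 3a, and Ppara for subfamily 4a.

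The 250 bases before the transcript start of 6 members are shown because these genes carry the contrasts described below: the family 1 genes, the endothelial gene Cyp4b1, and the central and portal hepatocyte genes Cyp2e1 and Cyp2f2. The sequences and positions are those of RefSeq on GRCm38.p6, each written 5′ to 3′ on the gene's strand and ending at the base before the start. Capitals mark the core of the element bound by the Ahr protein, GCGTG, searched on both strands and appearing as CACGC where it lies on the other strand, and the TATA box TATAAA, searched on the gene's strand.
Cyp1a1 (chr9:57697363-57697612, plus strand): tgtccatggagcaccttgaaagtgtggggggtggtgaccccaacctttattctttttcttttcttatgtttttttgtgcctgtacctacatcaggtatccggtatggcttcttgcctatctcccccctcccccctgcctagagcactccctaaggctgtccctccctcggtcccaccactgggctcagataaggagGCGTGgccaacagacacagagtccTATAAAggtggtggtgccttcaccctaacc
Cyp1a2 (chr9:57683656-57683905, minus strand): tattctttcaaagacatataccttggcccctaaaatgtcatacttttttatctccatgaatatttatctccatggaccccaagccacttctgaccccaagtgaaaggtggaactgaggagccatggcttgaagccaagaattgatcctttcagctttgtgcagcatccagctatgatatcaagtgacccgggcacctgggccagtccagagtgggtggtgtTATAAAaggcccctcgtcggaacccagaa
Cyp1b1 (chr17:79715062-79715311, minus strand): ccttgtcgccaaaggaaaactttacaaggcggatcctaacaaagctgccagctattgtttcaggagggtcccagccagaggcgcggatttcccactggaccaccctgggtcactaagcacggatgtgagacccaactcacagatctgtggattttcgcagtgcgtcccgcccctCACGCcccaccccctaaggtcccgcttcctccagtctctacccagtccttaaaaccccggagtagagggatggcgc
Cyp4b1 (chr4:115647722-115647971, minus strand): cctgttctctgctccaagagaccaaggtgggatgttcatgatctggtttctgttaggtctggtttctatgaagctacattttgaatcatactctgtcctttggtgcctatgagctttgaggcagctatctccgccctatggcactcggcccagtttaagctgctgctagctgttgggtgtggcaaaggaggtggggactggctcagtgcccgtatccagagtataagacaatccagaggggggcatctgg
Cyp2e1 (chr7:140763569-140763818, plus strand): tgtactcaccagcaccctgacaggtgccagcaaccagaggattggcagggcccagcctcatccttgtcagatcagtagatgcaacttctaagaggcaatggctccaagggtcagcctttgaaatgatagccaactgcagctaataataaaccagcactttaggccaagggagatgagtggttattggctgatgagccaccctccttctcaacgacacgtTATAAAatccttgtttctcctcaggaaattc
Cyp2f2 (chr7:27119705-27119954, plus strand): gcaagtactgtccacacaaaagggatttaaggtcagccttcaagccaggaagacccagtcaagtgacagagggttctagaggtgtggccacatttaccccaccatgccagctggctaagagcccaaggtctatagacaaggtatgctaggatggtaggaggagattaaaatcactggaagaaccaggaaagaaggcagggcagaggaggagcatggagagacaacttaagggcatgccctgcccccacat

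The TATAAA letters began 30 bases before the start of Cyp1a1, 29 before that of Cyp1a2 and 31 before that of Cyp2e1, and they were not found in the other 3 windows. GCGTG was found 1 time in the windows of Cyp1a1 and Cyp1b1 and not in the other 4. Of the 45 members with such a sequence, 14 held TATAAA (31.1%, against 8.12% of the 27025 genes in the reference), and 8 held GCGTG on either strand (17.8%, against 28.2%). These matches describe the letters only. All 54 members had a RefSeq position. Many lay in clusters of related genes. All 13 members of subfamily 2c were on chromosome 19, 7 of 2d on chromosome 15, 5 of 3a on chromosome 5 and 4 of 2a on chromosome 7. Cyp2c23 and Cyp3a13 lay apart from the rest of their subfamilies, which with them spanned 5022 kb for 2c and 8222 kb for 3a. Cyp1a1 and Cyp1a2 together spanned 26.9 kb on chromosome 9. The annotated Cyp1a1 gene, which runs from 57687928 to 57703824, begins upstream of the start used for its window.

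Related members could share reads, since the libraries were counted from the 3′ end of transcripts. In the last 500 bases of the GENCODE reference transcripts, 20 of 54 members shared no stretch of 50 bases with another P450 gene, and 16 shared more than 10% of their stretches. Only genes whose symbol begins with Cyp were searched. The most affected were Cyp2c40 (49.8%, mostly with Cyp2c69), Cyp2a5 and Cyp2a4 (44.4% and 44.3%, with each other), Cyp2c67 (39.8%), Cyp2c68 (36.7%) and Cyp3a44 (35.3%). Values of these members are uncertain for that reason.

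Cells were grouped into classes from marker genes, and a class is called "like" a cell type on that basis. Levels are given as CPM, the UMIs of a gene divided by all UMIs of a class in a library and scaled to 1000000. Hepatic cells, which pool the hepatocyte-like cells with a cluster of low-UMI hepatic cells, numbered 327 in the healthy and 329 in the CCl4 library. Endothelial-like cells numbered 3558 and 650, cholangiocyte-like cells 1240 and 16, and mesenchymal-like cells 7 and 2939. In the healthy library, 36 members had their clearly highest CPM in hepatic cells, meaning at least 10 UMIs there and an interval of the ratio to the next class that lay above 1. Cyp1a1, Cyp4b1 and Cyp4f16 were highest in endothelial-like cells, Cyp2d22 and Cyp2j6 in cholangiocyte-like cells and Cyp2s1 in mesothelial-like cells, and 12 members had no clear highest class. In the CCl4 library, 11 members were clearly highest in hepatic cells and 37 had no clear highest class. The hepatic cells held 2765449 UMIs in the healthy and 493504 in the CCl4 library, which made 10 UMIs harder to reach in the latter. Some of the 37, such as Cyp2d40 with 9 hepatic UMIs, had an interval above 1 and fell short in count only. Cyp1a1 and Cyp4b1 were again highest in endothelial-like cells, Cyp2j6 and Cyp4f14 in cholangiocyte-like cells, Cyp2s1 in mesothelial-like cells and Cyp4f18 in immune-like cells.

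**Figure D1:**
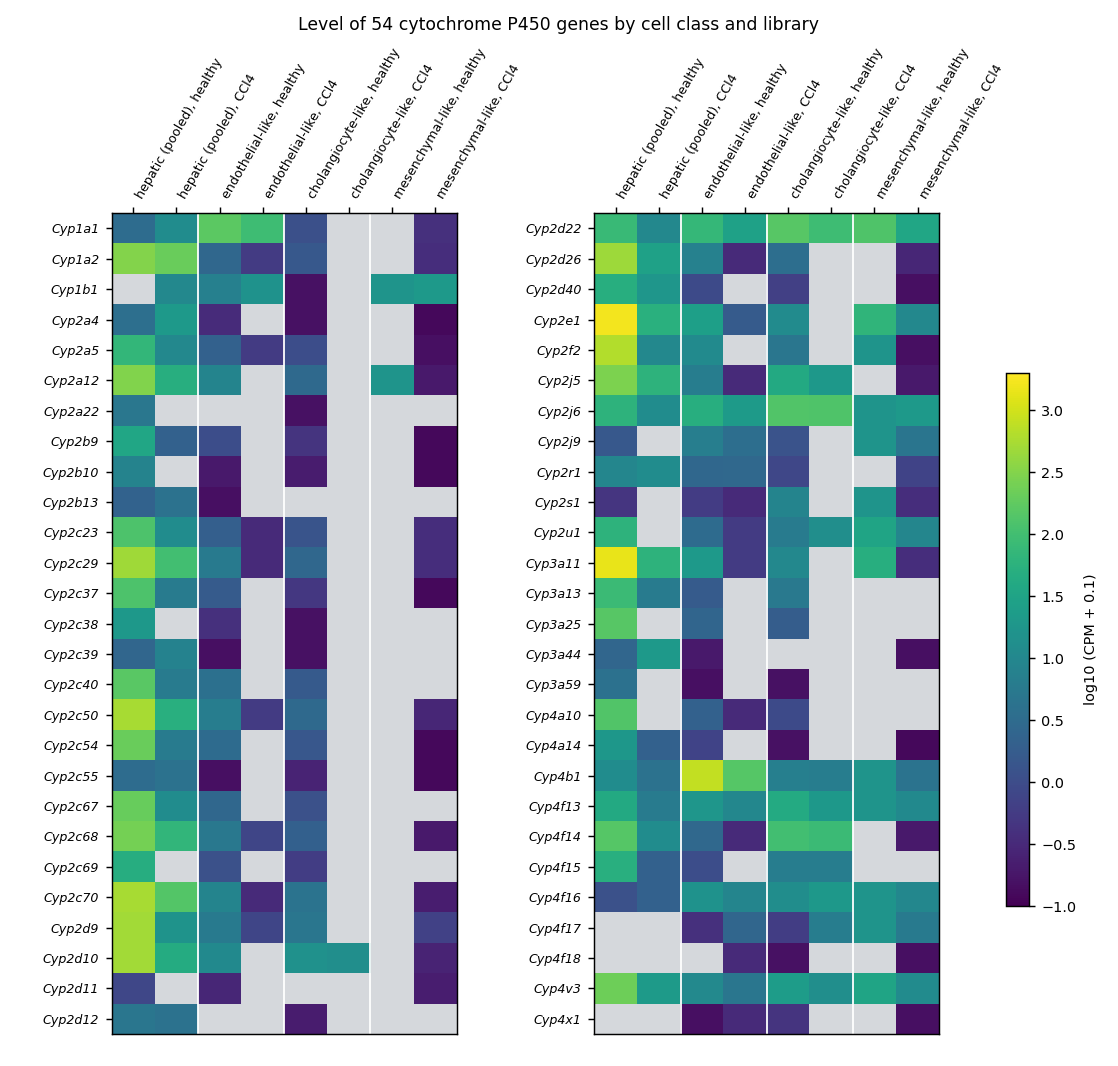
CPM of the 54 members (rows) by cell class in the healthy and the CCl4 library (columns), on a log colour scale, with grey for 0 UMIs. The classes are pooled hepatic, endothelial-like, cholangiocyte-like and mesenchymal-like cells. Most members are brightest in the healthy pooled hepatic column, while Cyp4b1 and Cyp1a1 are brightest in endothelial-like cells.

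Hepatocyte-like cells carried far less P450 RNA in the CCl4 library. Members made up 1.02% of all UMIs in the 325 healthy hepatocyte-like cells and 0.137% in the 109 CCl4 hepatocyte-like cells, which is 10165 against 1371 CPM in sum, a ratio of 0.135 [0.122, 0.149]. The healthy class was the deeper sample, with 2764252 UMIs against 305575, so that 3 UMIs stood for 1.09 CPM in the healthy and 9.82 CPM in the CCl4 cells. Albumin, the defining hepatocyte transcript, was at 30691 CPM in the healthy and 5773 CPM in the CCl4 cells of this class. Its part in the member ratios was not tested.

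A member was called lower or higher when its CPM differed by at least 2-fold with an interval that excluded 1, among genes with at least 10 UMIs in the compared cells. In hepatocyte-like cells 45 members could be judged, of which 31 were lower, 3 were higher and 11 were neither. By the same rule, 10.8% of all 9255 genes judged were lower and 10.4% were higher. The median log2 ratio was −2.60 over the 39 members whose higher level exceeded that of 3 UMIs in the shallower library, against −0.05 over all such genes. Of the 45 members, 10 had no UMI in the CCl4 cells. With the low-UMI hepatic cells pooled in, 33 of 45 members were lower and 3 were higher, against 12.7% and 12.3% of all genes. With a mitochondrial limit of 10% in place of 30% the number lower in this pooled class was 21. That limit also changed the makeup of the class. Its healthy cells then numbered 466 in place of 327, with 229 in place of 2 named low-UMI hepatic. In hepatocyte-like cells that limit ended the lower calls of 10 members, which were Cyp2a5, Cyp2b9, Cyp2c29, Cyp2c68, Cyp2c69, Cyp2c70, Cyp2d40, Cyp2j6, Cyp4f13 and Cyp4f15. With every cell weighing the same, the calls of Cyp2a5, Cyp2c29, Cyp2c68 and Cyp4f13 ended.

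**Figure D2:**
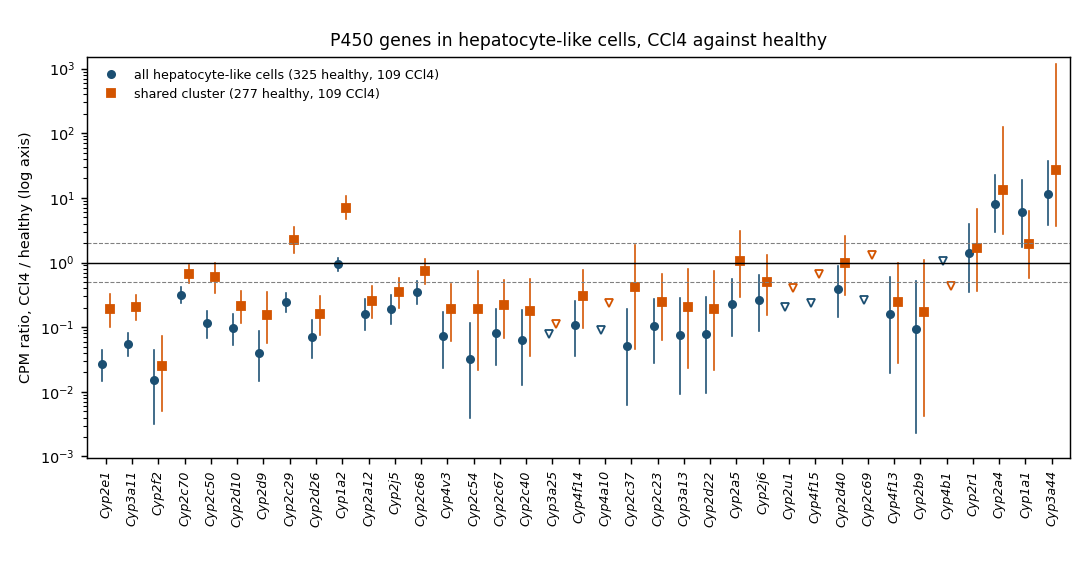
Ratio of CPM (CCl4 over healthy, log axis) with its 95% counting interval for 37 members in hepatocyte-like cells, over all cells of the class and over the cluster that held cells of both libraries. Open triangles are upper limits of members with no UMI in the CCl4 cells, and Cyp1a2 lies near 1 over the whole class and above 1 in the shared cluster.

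The healthy hepatocyte-like cells formed a pair of clusters that differed in depth and in P450 content. A cluster of 48 healthy cells, led by Slco1b2 and major urinary protein genes, had a median of 42576.5 UMIs and held 1.35% member UMIs. The remaining 277 healthy cells shared their cluster, led by Gnmt, Bhmt and Arg1, with all 109 CCl4 cells, had a median of 2363 UMIs against 1887 in the CCl4 cells, and held 0.337% member UMIs. Within this shared cluster the summed members were at 3371 CPM in healthy and 1371 CPM in CCl4 cells, a ratio of 0.407 [0.366, 0.451]. Albumin was also lower in these CCl4 cells, at 14416 CPM in healthy and 5773 CPM in CCl4 cells of the cluster. The secreted hepatocyte proteins used as a reference further below, albumin among them, summed to 47770 and 33635 CPM. Their part in the member ratios of this cluster was not tested. Of 37 members judged there, 22 were lower and 4 were higher, against 10.3% and 4.59% of all genes, and their median log2 ratio was −1.61 against −0.18 over all genes. Of the 31 members lower over the whole class, 21 were also lower there, Cyp2c29 turned to higher, and Cyp2a5, Cyp2b9, Cyp2c37, Cyp2c50, Cyp2c68, Cyp2c69, Cyp2c70, Cyp2d40 and Cyp2j6 were no longer called. The leading members are therefore given for the whole class and for the shared cluster. The name hepatocyte-like for the CCl4 cells depended on the clustering: with 30 principal components, or with each library clustered on its own, no CCl4 cell had it, and in the pooled hepatic cells 33 members were then lower.

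Neither member of subfamily 1a was called lower in hepatocyte-like cells, and their summed ratio was 0.984 [0.789, 1.21] over the class and 6.09 [4.25, 8.82] in the shared cluster. Cyp1a2, which oxidizes caffeine and aromatic amines, had 883 UMIs in the healthy and 91 in the CCl4 cells of the class, or 319 and 298 CPM, and the ratio of 0.932 [0.743, 1.16] did not differ from 1 beyond counting error. Within the shared cluster it was at 42.2 CPM in healthy and 298 CPM in CCl4 cells, 7.06-fold higher [4.79, 10.6]. The ratio over the class was 3.43 with a mitochondrial limit of 10% and 3.09 when every cell weighed the same. In the pooled hepatic cells Cyp1a2 was lower, at 319 CPM in healthy and, from 104 UMIs, 211 CPM in CCl4 cells. The summed ratio of subfamily 1a was 0.691 [0.562, 0.843] there, which did not pass the 2-fold limit. The CCl4 UMIs of Cyp1a2 came from 29 of 109 cells, and the cell with the most held 21 of the 91. Among the 277 healthy cells of the shared cluster 17 had a UMI, and the cell with the most held 14 of 38. Cyp1a1, the aromatic hydrocarbon hydroxylase with the GCGTG core shown above, had 9 healthy and 6 CCl4 UMIs in hepatocyte-like cells, the latter in 3 cells, and was called higher at 6.03-fold [1.77, 19.0]. Its shared-cluster ratio of 1.97 [0.576, 6.18] did not differ from 1 beyond counting error. With every cell weighing the same its class ratio turned to 0.750, and without the use of doublet scores it was 1.33 and not called. Cyp1b1 had 0 healthy UMIs and 1 CCl4 UMI in this class and was not judged.

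Cyp2e1, the enzyme of ethanol and CCl4 oxidation, had 4723 UMIs in the healthy and 14 in the CCl4 hepatocyte-like cells. Its level was 1709 CPM against 45.8 CPM, a ratio of 0.0268 [0.0146, 0.0450]. In the shared cluster the healthy level was 244 CPM and the ratio 0.188 [0.101, 0.322], so the member was lower in either set of cells but by different amounts. A Cyp2e1 UMI was found in 31.7% of the healthy and 7.34% of the CCl4 hepatocyte-like cells. After each cell was thinned to 2000 UMIs, the shares were 31.1% over 200 healthy cells, with 125 shallower cells left out, and 8.21% over 49 CCl4 cells, with 60 left out. For background, healthy cholangiocyte-like cells, with a median of 11748 UMIs per cell, had a Cyp2e1 UMI in 15.7% of cells, or 2.82% after thinning.

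The members of subfamily 2c oxidize fatty acids, bile acids and drugs, and their sum was 2724 CPM in healthy and 514 CPM in CCl4 hepatocyte-like cells, a ratio of 0.189 [0.160, 0.221]. In the shared cluster the sums were 798 and 514 CPM, and the ratio of 0.644 [0.538, 0.766] did not pass the 2-fold limit. Cyp2c70, which makes the muricholic bile acids of mice, was at 550 and 173 CPM, a ratio of 0.315 [0.235, 0.415]. Cyp2c50, a fatty acid oxidase, was at 546 and 62.2 CPM, a ratio of 0.114 [0.0684, 0.179]. In the shared cluster their ratios were 0.671 [0.488, 0.907] for Cyp2c70 and 0.590 [0.340, 0.972] for Cyp2c50, neither of them past the 2-fold limit. Cyp2c29, a fatty acid epoxygenase, turned its direction between the sets of cells. It was at 493 and 121 CPM over the whole class, a ratio of 0.246 [0.172, 0.340], and at 54.4 and 121 CPM in the shared cluster, 2.23-fold higher [1.41, 3.48]. Cyp2c54 (204 and 6.55 CPM), Cyp2c67 (200 and 16.4 CPM), Cyp2c40 (157 and 9.82 CPM), Cyp2c37 (126 and 6.55 CPM), Cyp2c23 (125 and 13.1 CPM) and Cyp2c68 (251 and 88.4 CPM) were also called lower over the class. The calls of Cyp2c68 and Cyp2c37 ended in the shared cluster, where Cyp2c68 was at 119 and 88.4 CPM, a ratio of 0.744 [0.469, 1.14], and Cyp2c37 had 14 and 2 UMIs, a ratio of 0.421 [0.0465, 1.83]. Cyp2c69 had 130 healthy UMIs and no CCl4 UMI, which is at least 4.79-fold lower against a limit of 3 UMIs, but 10 healthy UMIs in the shared cluster, where it was not called.

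Subfamily 2d, which in mice metabolizes steroids and drugs, summed to 1619 CPM in healthy and 134 CPM in CCl4 hepatocyte-like cells, a ratio of 0.0829 [0.0594, 0.113]. The sums in the shared cluster were 621 and 134 CPM, a ratio of 0.216 [0.153, 0.297]. Cyp2d10 was at 513 and 49.1 CPM, a ratio of 0.0958 [0.0535, 0.158]. Cyp2d9, a testosterone hydroxylase, was at 498 and 19.6 CPM, a ratio of 0.0394 [0.0145, 0.0861]. Cyp2d26 was at 470 and 32.7 CPM, a ratio of 0.0696 [0.0333, 0.128]. All 3 were lower in the shared cluster too, with ratios of 0.214, 0.157 and 0.160. Cyp2d22 (82.8 and 6.55 CPM) and Cyp2d40 (49.9 and 19.6 CPM) were called lower over the class. Cyp2d22 was also lower in the shared cluster, at a ratio of 0.190, while Cyp2d40 had 18 healthy and 6 CCl4 UMIs, a ratio of 0.983 [0.319, 2.58] that was not called.

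Among the other family 2 members, Cyp2f2, which oxidizes naphthalene, had 1791 healthy and 3 CCl4 UMIs, a ratio of 0.0152 [0.00312, 0.0444]. The shared cluster held 357 and 3 UMIs of it, a ratio of 0.0248 [0.00509, 0.0730], with overlapping intervals for both sets of cells. Cyp2a12, which rehydroxylates secondary bile acids, was at 303 and 49.1 CPM, a ratio of 0.162 [0.0902, 0.269]. Cyp2j5, an arachidonic acid epoxygenase, was at 287 and 55.6 CPM, a ratio of 0.194 [0.112, 0.312]. Cyp2a5, a coumarin hydroxylase, was at 70.9 and 16.4 CPM over the class, a ratio of 0.231 [0.0741, 0.548], and at 15.5 and 16.4 CPM in the shared cluster. Its near-identical neighbour Cyp2a4 was called higher from 10 healthy and 9 CCl4 UMIs, at 8.14-fold [2.93, 22.3] over the class. Cyp2u1, a fatty acid hydroxylase, had 165 healthy UMIs and no CCl4 UMI, at least 6.08-fold lower. Cyp2j6 (61.1 and 16.4 CPM) and Cyp2b9 (35.5 and 3.27 CPM) were called lower over the class. Neither was called in the shared cluster, with ratios of 0.508 [0.154, 1.33] for Cyp2j6 and 0.173 [0.00420, 1.11] for Cyp2b9.

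In family 3, Cyp3a11, the main drug-oxidizing enzyme of its subfamily in mouse liver, had 3927 healthy and 24 CCl4 UMIs, or 1421 and 78.5 CPM, a ratio of 0.0553 [0.0354, 0.0824]. Its shared-cluster levels were 378 and 78.5 CPM, a ratio of 0.208 [0.131, 0.314]. Cyp3a25 had 422 healthy UMIs and no CCl4 UMI, at least 15.5-fold lower. The healthy cells of the shared cluster held 98 of these UMIs. Cyp3a13 was at 85.4 and 6.55 CPM. Cyp3a44 was called higher from 7 healthy and 9 CCl4 UMIs, at 11.6-fold [3.85, 36.7], and its CCl4 UMIs came from 8 cells.

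In family 4, the fatty acid hydroxylase Cyp4a10, a known Ppara target, had 368 healthy UMIs and no CCl4 UMI, at least 13.6-fold lower, and Cyp4a14 had 51 and 1 UMIs, a ratio of 0.177 [0.00441, 1.03] that was not called. Cyp4v3, a fatty acid hydroxylase, was at 224 and 16.4 CPM, a ratio of 0.0731 [0.0236, 0.171]. Cyp4f14, which acts on leukotriene B4 and vitamin E, was at 149 and 16.4 CPM, a ratio of 0.11 [0.0355, 0.258]. Cyp4f15 had 145 healthy UMIs and no CCl4 UMI, at least 5.34-fold lower, and Cyp4f13 was at 40.5 and 6.55 CPM. Every member of family 4 named here apart from Cyp4a14 was called lower in the shared cluster as well, where Cyp4a14 was not judged.

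In hepatocyte-like cells the redox partners, regulators and other oxidizing enzymes were judged by the same rule. Of 6 redox partners judged, none was lower and 1 was higher, Cyb5a, at 2354 CPM in healthy and 5495 CPM in CCl4 cells. Por was at 56.8 and 29.5 CPM, a ratio of 0.519 [0.233, 1.01]. Of 11 regulators judged, 2 were lower and none was higher: Rxra, the partner of several nuclear receptors, at a ratio of 0.454 [0.239, 0.790], and Nr0b2, a repressor of bile acid synthesis, at 0.280 [0.111, 0.587]. Hnf4a (0.905), Nr1i3 (0.952) and Ppara (0.966) had ratios whose intervals included 1, as did Ahr, which had 30 healthy and 3 CCl4 UMIs. Of 10 genes from other P450 families, 5 were lower, among them Cyp8b1 (0.10) and Cyp27a1 (0.142) of bile acid synthesis, while the ratio of Cyp7a1 was 0.905 [0.378, 1.87]. Of 9 other enzymes of oxidation and hydrolysis, 6 were lower, with ratios from 0.0395 for Ces1c to 0.471 for Ephx2. In the shared cluster the counts of lower genes were 0 of 6 redox partners, 1 of 8 regulators, 1 of 7 other P450 genes and 5 of 9 other enzymes, and no gene of these lists was higher. In the pooled hepatic cells 2 of 6 redox partners were lower (Por and Pgrmc1) and Cyb5a was higher, and the other lists had 3 of 11, 7 of 10 and 6 of 9 genes lower. Over the whole class the median log2 ratios of the 4 lists were −0.25, −0.14, −1.73 and −1.24 in this order, against −0.05 over all genes, and the shares of all genes called are those given for the members.

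The healthy hepatocyte-like cells were ordered along the lobule by the ratio of 12 central to 12 portal marker genes, none of them a P450 gene, using the 200 cells with at least 2000 UMIs. The 66 most central and the 66 most portal cells were compared, with 1117574 and 830211 UMIs. The order is a continuous score, and 66 cells lay within 0.5 log2 units of a limit. The deep cluster gave 23 of the central and 15 of the portal cells. Glul, the glutamine synthetase of the cells at the central vein, was at 228 and 15.7 CPM in these sets, and Sds, a portal serine dehydratase, at 4.47 and 612 CPM, both being part of the score.

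Of 34 members with at least 20 UMIs in these cells, 16 were higher in the central set, 2 were higher in the portal set and 16 were neither, against 5.17% central and 1.75% portal among all 6113 genes judged. Cyp2a5 had 182 UMIs in the central and none in the portal cells, at least 45.1-fold higher against a limit of 3 UMIs. Cyp2c29 was at 1066 CPM in central and, from 2 UMIs, at 2.41 CPM in portal cells, 442-fold apart [122, 3657]. Cyp2e1 was at 3780 CPM in central and 25.3 CPM in portal cells, 149-fold apart [97.6, 242], and Cyp2c50 was at 1086 and 22.9 CPM, 47.5-fold apart [30.3, 79.1]. At the portal end Cyp2f2 was at 8.05 CPM in central and 1473 CPM in portal cells, a ratio of 0.00547 [0.00249, 0.0104], and Cyp2b9 was at 26.8 and 56.6 CPM, a ratio of 0.474 [0.290, 0.766]. The other members with the smallest ratios, Cyp2u1 (0.604) and Cyp2c23 (0.768), were not called.

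The members of 1 subfamily were not alike along this order. In subfamily 2c the central to portal ratio ranged from 0.768 for Cyp2c23 to 442 for Cyp2c29, and in 2d it ranged from 0.913 for Cyp2d26 to 3.38 for Cyp2d40. Cyp1a2 (656 and 24.1 CPM) and Cyp3a11 (2155 and 943 CPM), named here for their place in the comparison of libraries, were called central with ratios of 27.2 [17.5, 44.8] and 2.28 [2.11, 2.48]. Without the deep cluster 9 of the 16 central members were still called central, among them Cyp2e1 (110), Cyp2c50 (74.7), Cyp1a2 (44.0) and Cyp2c29 (24.0), and 6 could not be judged. Cyp3a11 lost its call there and lay on the other side of 1, with 68 central and 107 portal UMIs and a ratio of 0.848 [0.616, 1.16]. At the portal end Cyp2f2 (0.112) kept its call and Cyp2b9 could not be judged, while Cyp4v3 (0.433) and Cyp2a12 (0.475), not called with the deep cluster included, were called portal. The central members Cyp2e1 and Cyp2c50 and the portal member Cyp2f2 were all lower in the CCl4 hepatocyte-like cells over the whole class, and Cyp1a2 was not. The call of Cyp2c50 ended in the shared cluster.

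**Figure D3:**
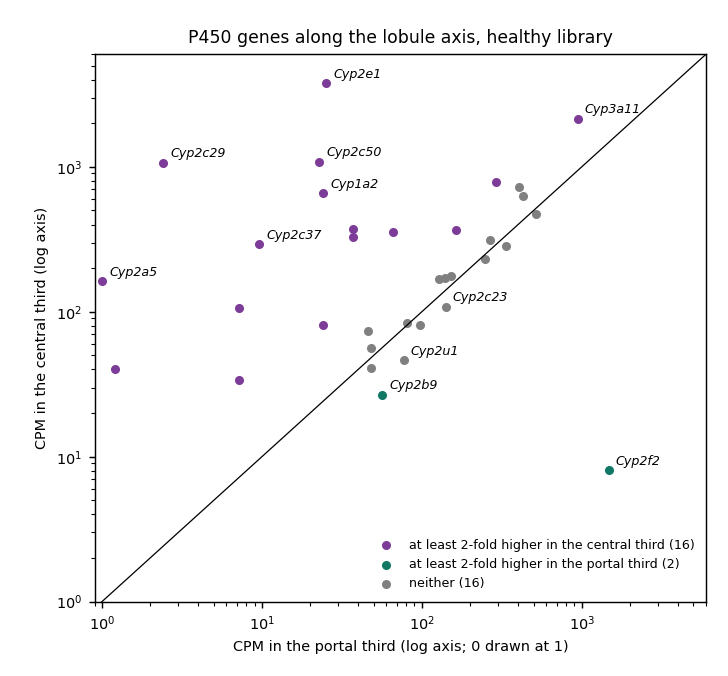
CPM of members in the 66 most central (y axis) and the 66 most portal (x axis) healthy hepatocyte-like cells, both axes log scaled, with the diagonal marking equal levels. Cyp2e1, Cyp2c29, Cyp2c50 and Cyp1a2 lie far to the central side and Cyp2f2 to the portal side, while many members lie near the diagonal.

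Droplets of other cells also hold RNA that hepatocytes release, so members were judged against a hepatocyte-derived level. That level was set by 8 secreted hepatocyte proteins (such as Alb and Ttr): a member was above it when its UMIs per UMI of these genes were more than 2-fold those in hepatic cells of the same library over the whole interval, with at least 10 UMIs in the class. A member above the level need not be the class's own, because RNA released by other classes was not taken into account. In healthy cholangiocyte-like cells Cyp4b1 was above it at 7.12 CPM, against 810 CPM in healthy endothelial-like cells. Of these cholangiocyte-like cells 23.3% had a UMI of the endothelial gene Clec4g. In healthy endothelial-like cells 40 members could be judged, of which 12 were above the level and 28 were not, against 95.4% of all genes above it. The 28 members not above the level stood at 0.834% to 3.41% of their CPM in hepatic cells, with a median of 1.64%, and the 8 reference genes stood at 1.5% to 2.35%. The most abundant of the 28 were Cyp2e1 (26.9 CPM), Cyp3a11 (21.5 CPM) and Cyp2f2 (11.4 CPM).

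Cyp4b1, a fatty acid hydroxylase known from lung for activating toxins, led the 12 members above the level in endothelial-like cells, with 16741 UMIs and 810 CPM in the healthy and 623 UMIs and 144 CPM in the CCl4 library. The ratio was 0.178 [0.164, 0.193]. A Cyp4b1 UMI was found in 84.5% [83.3, 85.7] of the healthy and 44.2% [40.3, 48.1] of the CCl4 endothelial-like cells, which had median depths of 5910 and 6557.5 UMIs. With every cell thinned to 2000 UMIs, 73.5% of 2984 healthy and 23.5% of 572 CCl4 cells had such a UMI, with 574 and 78 shallower cells left out. In healthy hepatocyte-like cells, with a median depth of 2908 UMIs, 8.0% had a Cyp4b1 UMI, and in healthy cholangiocyte-like cells 8.63%, or 1.40% after thinning.

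Cyp1a1 was at 163 CPM in healthy and 90.9 CPM in CCl4 endothelial-like cells, a ratio of 0.559 [0.502, 0.621] that did not pass the 2-fold limit. Cyp2d22 was at 73.9 and 28.9 CPM, a ratio of 0.391 [0.323, 0.470], and Cyp2j6, an eicosanoid epoxygenase, at 48.9 and 22.2 CPM, a ratio of 0.454 [0.364, 0.560]. Cyp4f13 (18.2 and 9.71 CPM) and Cyp4f16 (15.7 and 8.79 CPM) had ratios of 0.532 and 0.560 and were not called. In the CCl4 library all 11 members judged were above the level, as were 99.7% of all genes. There the 6 of highest CPM were Cyp4b1, Cyp1a1, Cyp2d22, Cyp2j6, Cyp1b1 and Cyp4f13. Cyp1b1, an estrogen and retinoid oxidase that also responds to Ahr, was at 7.50 CPM in healthy and 15.5 CPM in CCl4 cells, 2.07-fold higher [1.53, 2.77]. It was not called with at least 1000 UMIs per cell (1.91) or with each library clustered on its own (1.83). In the cluster of 645 CCl4 endothelial-like cells, 49.8% had a UMI of the mesenchymal gene Col1a1 and 60.9% of Dcn. Cyp1b1 was at 20.6 CPM in CCl4 mesenchymal-like cells and higher in an unnamed CCl4 cluster given in the closing observations. RNA of those cells as a source of this Cyp1b1 value was not tested.

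Of 41 members judged between the libraries in endothelial-like cells, 28 were lower and 2 were higher, against 15.4% and 6.06% of all 13385 genes. The median log2 ratio was −1.80 against −0.32 over all genes. The members that stood at the hepatocyte-derived level made up most of the lower calls. Of the 28 members not above that level in the healthy cells, 23 were lower and none was higher. Of the 12 above it, 5 were lower (Cyp4b1, Cyp2d22, Cyp2j6, Cyp4v3 and Cyp2u1), Cyp1b1 was higher and 6 were neither. With TMM scaling Cyp2j6 (0.539) and Cyp4v3 (0.551) were not called. The remaining member, Cyp4f17, had 6 healthy and 11 CCl4 UMIs and was called higher. The 8 reference genes themselves summed to 1475 CPM in healthy and 75.8 CPM in CCl4 endothelial-like cells.

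**Figure D4:**
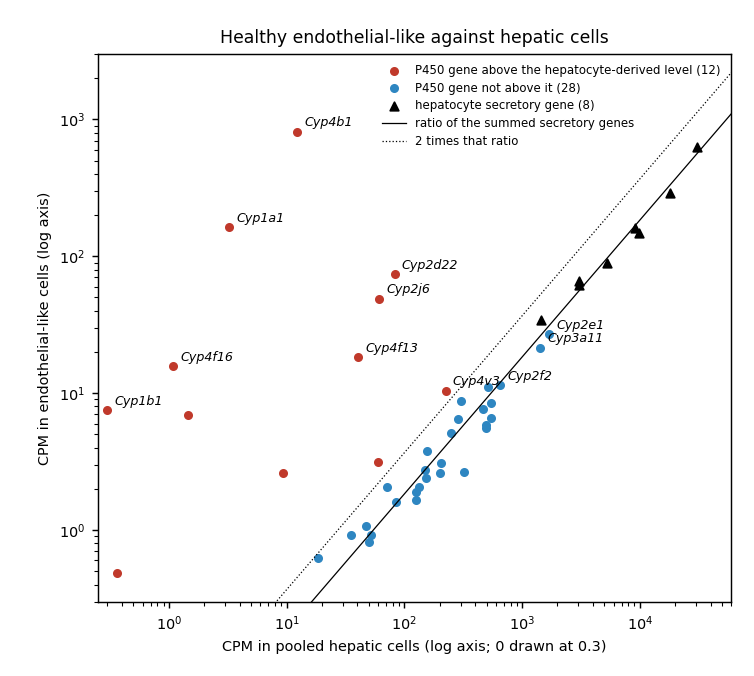
CPM of members in hepatic cells (x axis) and endothelial-like cells (y axis) of the healthy library, both log scaled, with the 8 reference genes and the line of the hepatocyte-derived level. The 28 members not above the level follow the line of the reference genes, and Cyp4b1, Cyp1a1, Cyp2d22 and Cyp2j6 lie far above it.

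The endothelial-like cells of the libraries fell into different clusters. In the healthy library most cells lay in a pair of sinusoidal clusters with Clec4g, a lectin of sinusoidal endothelium, at 4422 and 4817 CPM, and in a cluster of 244 cells with Clec4g at 520 CPM and Vwf, a factor of larger vessels, at 1138 CPM. The CCl4 cells lay almost wholly in another cluster, led by Esm1 and Nts, with 645 CCl4 and 34 healthy cells. Cyp4b1 was at 869 and 992 CPM in the sinusoidal clusters and at 178 CPM in the Vwf cluster. Cyp1a1 had the opposite order, with 91.3 and 108 CPM in the sinusoidal clusters and 615 CPM in the Vwf cluster, where 61.1% of cells had a UMI of it, against 1.21% of the healthy cholangiocyte-like cells. Cyp1b1 was at 53.0 CPM in the Vwf cluster and below 1 CPM in either sinusoidal cluster. A further cluster of 539 healthy cells with few UMIs had 658 CPM of Cyp4b1.

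Within the cluster led by Esm1, Cyp4b1 was at 641 CPM [429, 920] in the 34 healthy cells and 144 CPM in the 645 CCl4 cells. Clec4g was at 3469 CPM in these healthy and 1085 CPM in these CCl4 cells, so the cells compared within this cluster were not alike. In that comparison, added after the data were seen, 4 members were lower and none was higher: Cyp4b1 (a ratio of 0.224, with 29 healthy UMIs), Cyp1a1 (0.342), Cyp2j6 (0.253) and Cyp4v3 (0.0739). There Cyp1b1 had 1 healthy and 67 CCl4 UMIs, a ratio of 0.707 against 2.07 over all endothelial-like cells. Cyp2d22 had a ratio of 1.31 there from 1 healthy UMI, against 0.391 over all endothelial-like cells. Cluster and library cannot be told apart for the other clusters, which held cells of almost only 1 library.

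**Figure D5:**
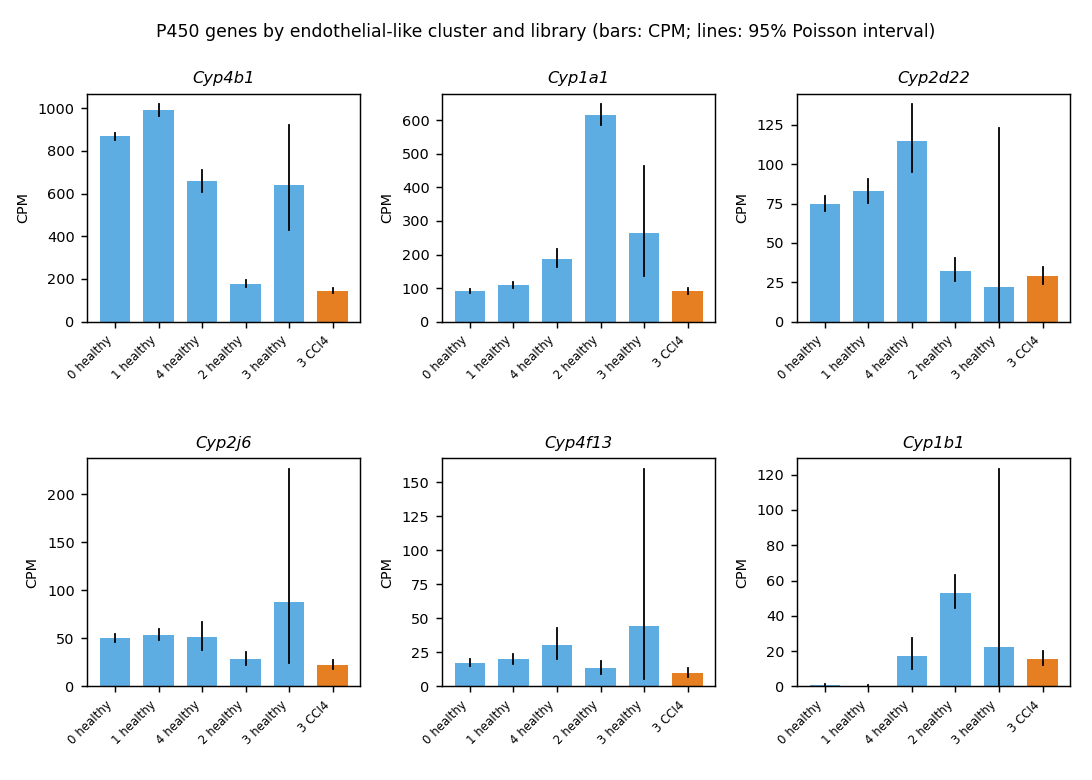
CPM with 95% counting intervals of 6 named members in each endothelial-like cluster and library, where 0 and 1 are the sinusoidal clusters, 2 the Vwf cluster, 3 the cluster led by Esm1 and 4 the cluster with few UMIs. Cyp4b1 is highest in the sinusoidal clusters, and Cyp1a1 and Cyp1b1 are highest in the Vwf cluster.

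In healthy cholangiocyte-like cells, the lining cells of bile ducts, 35 members could be judged and 8 were above the hepatocyte-derived level, against 93.9% of all genes. Cyp2d22 was at 150 CPM in this class and Cyp2j6 at 138 CPM, with a UMI in 74.8% and 76.9% of the 1240 cells. After thinning to 2000 UMIs these shares were 24.3% and 23.3%, against 14.3% and 9.82% of the healthy endothelial-like cells. Cyp4f14 was at 98.2 CPM, Cyp4f13 at 42.9 CPM, Cyp4f16 at 12.8 CPM and Cyp2s1 at 8.46 CPM. The most abundant members not above the level were Cyp2j5 (40.6 CPM), Cyp4v3 (24.1 CPM) and Cyp2d10 (14.9 CPM). The reference genes were uneven in this class: 4 of them stood at 0.766% to 1.08% of their hepatic level and the other 4 at 2.07% to 19.3%. With the 4 lower genes as the reference, chosen after the data were seen, 16 members were above the level. In the CCl4 library the 16 cholangiocyte-like cells held 20 UMIs of Cyp2j6 (131 CPM), 14 of Cyp2d22 (91.4 CPM) and 13 of Cyp4f14 (84.9 CPM), and these 3 members were the only ones judged there, all above the level, against 44.4% of all genes. The reference genes of these 16 cells ranged from no UMI of Apoa1 to Ahsg at 71.0% and Alb at 276% of their hepatic level, and with Alb alone as the reference none of the 3 members was above it. Of 36 members judged between the libraries in this class none was lower or higher, against 2.39% and 1.71% of all genes, at a depth where 3 UMIs in the CCl4 cells stand for 19.6 CPM.

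Mesenchymal-like cells, the collagen-producing cells of the liver, came almost wholly from the CCl4 library, and members made up 0.0147% of their UMIs. Of 19 members judged in the CCl4 cells, 16 were above the hepatocyte-derived level, against 99.2% of all genes. Cyp2d22 was at 35.6 CPM (1476 UMIs), Cyp1b1 at 20.6 CPM (854 UMIs), Cyp2j6 at 20.2 CPM (836 UMIs), Cyp4v3 at 11.9 CPM, Cyp4f13 at 10.9 CPM and Cyp2e1 at 9.995 CPM. The 414 UMIs of Cyp2e1, known as a hepatocyte gene, compare with 5.2 UMIs at the hepatocyte-derived level. A Cyp2e1 UMI was found in 6.02% of the CCl4 mesenchymal-like cells (median depth 13909 UMIs) and in 1.08% of the CCl4 endothelial-like cells, or in 1.68% and 0.252% after thinning to 2000 UMIs. The 3 members not above the level, Cyp1a2, Cyp2c29 and Cyp3a11, had 11 UMIs each. Among 3 mesenchymal clusters Cyp1b1 ranged from 9.51 to 30.8 CPM and Cyp2e1 from 6.93 to 15 CPM, while Cyp2d22 ranged from 33.0 to 39.4 CPM. An unnamed cluster of CCl4 cells that also carried RNA of the collagen gene Col1a1 had a higher Cyp1b1 level, given in the closing observations. The 7 healthy mesenchymal-like cells held 29 member UMIs over 15 members, with 8 of Cyp2d22, 4 of Cyp2e1 and 3 of Cyp3a11. No member reached 10 UMIs there and could be judged. Between the libraries 4 of 19 members were lower and none was higher, against 4.8% and 1.16% of all genes, and each of the 4 rested on 8 healthy UMIs or fewer.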

How the data were processed

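RNA of single liver cells was counted in droplets (single cell 3′ chemistry per the labels) in 2 libraries. The authors deposited a matrix of UMI counts per gene and cell barcode for each library, without normalization. Per the file headers the healthy matrix came from Cell Ranger 3.1.0 and the CCl4 matrix from Cell Ranger 6.0.1, so software and condition cannot be told apart. The submitters' processing notes name the builds GRCh38 and mm10, fastp and featureCounts 1.6.2, while the files hold mouse Ensembl identifiers without coordinates. Members and lists were chosen with earlier results of these data known.

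Cells were kept from 500 UMIs and 200 genes upward when no more than 30% of their UMIs were mitochondrial, and doublets were removed by Scrublet score at 0.8% per 1000 cells (277 healthy and 487 CCl4 cells). A joint clustering of the libraries used scanpy 1.11.5 (2000 variable genes, 10 principal components, 20 neighbours, Leiden resolution 1). Clusters were named from markers of 11 classes, each name needing at least 3 markers at 2-fold in at least 10% of cells, so that names can differ from those of the study. UMIs were summed per class, with exact Poisson, binomial and conditional binomial 95% intervals. No p-value was computed. The calculations were tested on simulated data. The rule for named members took, in hepatic cells, the 12 with the most UMIs and any other called, in other classes the 6 of highest CPM above and the 3 not above the hepatocyte-derived level in each library, and along the lobule the 4 largest and 4 smallest ratios. Other names, including the members in the closing observations, were chosen after their values were seen. Alternatives changed the cell filters, clustering, doublets, scaling (edgeR 4.0.16 in R 4.3.3 for TMM), weighting, call limits and reference genes.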

Additional observations from a re-analysis of the deposited data

How the results depend on the processing

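With 1 library per condition, leaving out a replicate was not possible. No paired analysis was possible because each condition had 1 library and no replicate numbers. Of 194 alternative values of counts and medians, 171 moved by less than 1.5 times or by less than the counting spread and 23 moved further. Of the ratios of single members, 520 stayed on the same side of the call, 35 were no longer called, 23 became called and 5 changed direction. With 30 principal components, or with each library clustered on its own, no CCl4 cell was named hepatocyte-like and the comparison gave no value for that class, while all 330 or 337 CCl4 hepatic cells gave 33 lower members in the pooled class. For the values below the cause was not tested unless it is stated.

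With a mitochondrial limit of 10%, hepatocyte-like cells had 1 member higher and a median log2 ratio of −1.68, pooled hepatic cells had 21 lower members and a median of −1.27, the portal set had 1 member, and healthy mesenchymal-like cells had 1 member above the hepatocyte-derived level. The healthy pooled hepatic class then held 466 cells, 229 of them low-UMI hepatic, in place of 327. With every cell weighing the same, the hepatocyte-like median was −1.82, the ratio of Cyp1a1 there was 0.750, and 1 cholangiocyte-like and 2 mesenchymal-like members were lower. Without the deep healthy cluster, an alternative added after the data were seen that leaves out 48 cells, the medians were −1.61 in hepatocyte-like and −1.94 in pooled hepatic cells, the ratios of Cyp2a5 and Cyp2c29 were 1.05 and 2.23, and 9 members were central.

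In the endothelial cluster that held cells of both libraries, also added, 4 members were lower and 0 were higher, and the ratios of Cyp1b1 and Cyp2d22 were 0.707 and 1.31, on 34 healthy cells. With at least 1000 UMIs per cell, and with each library clustered on its own, 1 endothelial member was higher. In cholangiocyte-like cells 1 member was lower with 30 principal components and with each library clustered on its own, 16 healthy members were above the hepatocyte-derived level with the reference of 4 genes, and 0 CCl4 members were with Alb alone. In healthy mesenchymal-like cells 1 member was above it with 30 principal components, 2 with each library clustered on its own and 8 without a minimum of UMIs. The ratio of Cyp4b1 in endothelial-like cells ranged from 0.161 to 0.224 and that of Cyp2e1 in hepatocyte-like cells from 0.0229 to 0.188. The CCl4 hepatocyte-like, CCl4 cholangiocyte-like and healthy mesenchymal-like cells were too few for levels under 9.82, 19.6 and 49.2 CPM.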

Other observations

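Members were also detected in mesothelial-like, immune-like and unnamed cells. Cyp2d22 was at 52.3 CPM in CCl4 mesothelial-like cells, and Cyp4b1 was at 167 CPM, from 36 UMIs, in the 21 healthy immune-like cells. Of these cells 15 lay in the macrophage and monocyte-like cluster, where they also held the endothelial genes Clec4g (577 CPM) and Pecam1 (180 CPM). Endothelial RNA as a source of this Cyp4b1 value was not tested. Cyp2s1, an epithelial P450 enzyme, had 1136 UMIs in the 231 healthy mesothelial-like cells (296 CPM) and 776 UMIs in the 877 CCl4 mesothelial-like cells (48.3 CPM), a ratio of 0.163 [0.149, 0.179]. The healthy and CCl4 cells of this class lay in different clusters, which cannot be told apart from the libraries. Cyp4f18, a leukotriene B4 hydroxylase of myeloid cells, had 258 of its 274 CCl4 UMIs in immune-like cells, at 358 CPM in the neutrophil-like cluster, 127 CPM in the macrophage and monocyte-like cluster and 52.6 CPM in the cluster named B and plasma cell-like. The leading genes of that last cluster held the dendritic markers Siglech and Ccr9 beside Igkc and Cd79a, so its value cannot be given to B and plasma cells alone. Immune cells were depleted before sequencing, and the healthy library held 21 immune-like cells with 3 UMIs of it.

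Cyp1b1 had 179 UMIs in the healthy and 7500 UMIs in the CCl4 library as deposited. Among the kept cells 5044 of the CCl4 UMIs lay in a cluster of 707 CCl4 cells without a name, led by Serpinb2, Enpp2 and Cxcl5, where Cyp1b1 was at 376 CPM [366, 387] and 79.4% of cells had a UMI of it. In this cluster 95.8% of cells had a UMI of the collagen gene Col1a1 (1382 CPM), 84.2% of the mesenchymal marker Pdgfra and 43.1% of the mesothelial marker Upk3b. Cyp1b1 was at 89.0 CPM in an unnamed cluster of 293 CCl4 cells led by cell cycle genes, and at 19.4 CPM in CCl4 mesothelial-like cells, with no UMI in healthy ones, which is at least 24.8-fold higher against a limit of 3 UMIs. Cyp4f17 had 19 UMIs in the healthy and 517 in the CCl4 library, spread over mesenchymal-like and mesothelial-like cells. The gene lists and software of the libraries differed, and their part in this value was not tested.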
